A study of Homo sapiens with 18 samples.

Results

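The genes examined were 38 antiviral effector genes that cells switch on in response to interferon, taken by their symbols from the 60668 genes of the deposited count table. They were followed across 6 groups of IMR90 cells, a commercially available line of primary human lung fibroblasts of wild-type genotype, with 3 poly(A) RNA libraries in each group. Cells were either proliferating or irradiated (IR) to induce senescence, a lasting growth arrest after DNA damage, and were given DMSO, the solvent control, or an MDM2 inhibitor, RG7388 (idasanutlin) or HDM201 (siremadlin). In irradiated cells treatment started on day 4 and RNA was collected on day 11 after irradiation, so that the compounds were present for 7 days. The groups are called Prolif_DMSO, Prolif_RG7388, Prolif_HDM201, IR_DMSO, IR_RG7388 and IR_HDM201. The labels do not state the days for the proliferating cells or how the 3 libraries of a group were separated. In the study's methods a cell culture replicate is a well of a plate, so p-values measure the spread between such libraries, which may be partly technical. The series asked how activation of p53 bears on inflammation of senescent cells. MDM2 is the ubiquitin ligase that keeps p53 low, and both compounds block its grip on p53. The study's methods give the compounds at different concentrations, so they are set side by side without a comparison between them. Both are compared with the same IR_DMSO libraries, so their changes are not independent of each other.

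Interferons are secreted when cells sense foreign or misplaced nucleic acid. They bind receptors that activate JAK kinases and, through them, transcription factors that bind the interferon-stimulated response element (ISRE) in front of target genes. The products of these genes restrict viruses at many steps. Some recognise viral RNA, some degrade it or block its translation, some modify proteins and others hold particles at membranes. Senescent fibroblasts can also express such genes without a virus.

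The response element was looked for in the RefSeq promoters (GRCh38.p14), each of which spans 250 bases before to 50 bases after a transcription start. The letters searched were GAAA, any pair of bases and GAAA again, which read TTTC, a pair and TTTC on the reverse strand, and either strand counted. Of the 38 genes, 32 had a promoter in the table, and 25 of these (78.1%) held the element, against 4.38% of all 27305 genes with a promoter there. A second motif, TTCNNNGAA, the gamma-activated site, was in 10 of the 32 (31.2%), against 9.38% of all genes. IFIT2, OAS2, OASL, MX2, USP18 and TRIM22 were not among the promoters. DDX58, OAS1, HERC6, CMPK2, SAMD9L, IFI35 and XAF1 did not have the ISRE letters in these windows, which says only that this spelling is not there. The stretches that follow show where the element sits in genes of different function, and were chosen for holding these letters. In each of the 10 role groups they come from the gene with the highest CPM in IR_DMSO, which is not scaled to length, among those with the letters ahead of a start. They are written 5′ to 3′ on the gene's strand, with the matched letters in capitals. The windows lie at chr4:168318786-168318815 (DDX60, minus strand), chr10:89392510-89392539 (IFIT1, plus strand), chr12:112938444-112938473 (OAS3, plus strand), chr21:41431829-41431888 (MX1, plus strand), chr1:1013365-1013424 (ISG15, plus strand), chr2:6877622-6877651 (RSAD2, plus strand), chr3:122680779-122680838 (PARP14, plus strand), chr7:93118081-93118140 (SAMD9, minus strand), chr1:27672251-27672310 (IFI6, minus strand) and chr1:78649729-78649788 (IFI44, plus strand). MX1, RSAD2 and IFI44 have more than a single annotated start. The promoters of DDX60, IFIT1, OAS3, ISG15 and IFI6, each with a single start, hold more than a single match. For ISG15 all matches are in the stretch shown, where they overlap. For DDX60, IFIT1, OAS3 and IFI6 not all are in the stretch shown.
DDX60: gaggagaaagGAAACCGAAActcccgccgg
IFIT1: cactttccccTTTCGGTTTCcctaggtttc
OAS3: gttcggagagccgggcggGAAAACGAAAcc
MX1: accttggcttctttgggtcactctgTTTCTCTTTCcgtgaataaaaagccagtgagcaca
ISG15: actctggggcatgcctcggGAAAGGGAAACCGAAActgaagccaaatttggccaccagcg
RSAD2: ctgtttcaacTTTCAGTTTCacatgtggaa
PARP14: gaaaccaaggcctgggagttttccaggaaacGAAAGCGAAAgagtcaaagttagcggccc
SAMD9: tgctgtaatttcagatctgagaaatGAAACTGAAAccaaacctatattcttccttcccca
IFI6: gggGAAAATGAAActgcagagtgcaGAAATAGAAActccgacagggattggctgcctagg
IFI44: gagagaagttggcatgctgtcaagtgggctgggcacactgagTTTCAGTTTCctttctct

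Levels are given as CPM, counts scaled to library size, with TMM factors applied. Library depth ran from 21609198 to 66647700 counts. IR_DMSO replicate 1 differed from the other libraries of its group, with a chi-square per degree of freedom across genes of 103.8 and 101.5 against 3.79 between the other pair, and mitochondrial genes took 0.668% of its counts against 2.38% to 3.47% in every other library. Prolif_HDM201 replicate 3 also differed from its group, at 76.8 and 60.6 against 5.62. The 10 fibroblast markers examined were all above 1 CPM in every group, and summed to 24208 to 30557 CPM in IR_DMSO and 62853 to 70251 CPM in Prolif_DMSO. The 15 leukocyte and blood markers summed to 2.05 to 2.61 CPM in IR_DMSO, 1.07 to 2.33 CPM in Prolif_DMSO, 1.19 to 1.50 CPM in IR_RG7388 and 1.05 to 1.33 CPM in IR_HDM201, with TYROBP and CD2 at 0 in IR_DMSO, PTPRC at 15 reads in IR_DMSO and 15 in Prolif_DMSO, and CD14, a monocyte marker named after its values were seen, at means of 0.910 and 0.106 CPM. Of the 15 leukocyte and blood markers, 2 passed the filter on low counts, with log2 changes of 3.01 and −0.78 with irradiation. By group mean 1 of the 15 was over 1 CPM in Prolif_DMSO and 0 in IR_DMSO. The 9 epithelial markers summed to at most 4.10 CPM and the 8 endothelial markers to 119 to 139 CPM in IR_DMSO, against 8.86 to 11.1 CPM and 86.7 to 93.9 CPM in Prolif_DMSO. In each of these groups 1 epithelial and 2 endothelial markers had a mean over 1 CPM, so the sums come from few genes. The part of other cells in the changes was not tested. In bulk RNA, fewer cells of a type and less RNA per cell cannot be told apart.

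Irradiation raised every antiviral gene that could be tested. Of the 38 genes, 37 passed the filter on low counts, and all 37 were called higher in IR_DMSO than in Prolif_DMSO at an adjusted p under 0.05 by edgeR's quasi-likelihood test, against 26.3% of all 18151 genes tested. The median log2 change was 3.84, with a range of 1.21 to 10.75, and the median over all genes was 0.05. In all 38 genes the lowest IR_DMSO library was above the highest Prolif_DMSO library, which was so for 31.8% of all genes tested. CMPK2 reached the count cutoff in fewer than 3 libraries outside IR_DMSO, and so passed only through the group where it was high.

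With RG7388, 36 of the 37 were called lower than in IR_DMSO and none higher, against 11.9% of all genes called lower and 10.9% higher. Their median log2 change was −3.50, against −0.03 over all genes. HDM201 gave 36 lower and none higher, against 11.3% of all genes called lower and 9.96% higher, with a median of −3.45 against −0.02. The 37 genes whose libraries did not overlap between IR_DMSO and IR_RG7388, all lower in the latter, include RTP4, and 22.6% of all genes were placed so. For HDM201 they were also 37, against 19.1%. The gene called in neither was TRIM22. Without IR_DMSO replicate 1 and Prolif_HDM201 replicate 3, when RTP4 also passed the filter, 38 of 38 were called higher with irradiation and 37 of 38 lower with each compound. Immediate early and heat shock genes, which respond to cell handling, moved in the same libraries: 11 of the 15 examined were lower in IR_RG7388 and 11 in IR_HDM201 than in IR_DMSO, with summed levels of 1105 to 1164 CPM in IR_DMSO, 747 to 773 CPM in IR_RG7388 and 748 to 759 CPM in IR_HDM201. With irradiation 6 of these 15 rose and 6 fell, where 26.3% of all genes rose and 25.3% fell. Their sum in Prolif_DMSO was 996 to 1063 CPM. The part of these handling genes in the antiviral change was not tested. The medians of genes with and without the ISRE letters in their promoter were 3.75 (24 genes) and 3.43 (7 genes) with irradiation, and −3.48 and −3.92 with RG7388.

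**Figure D1:**
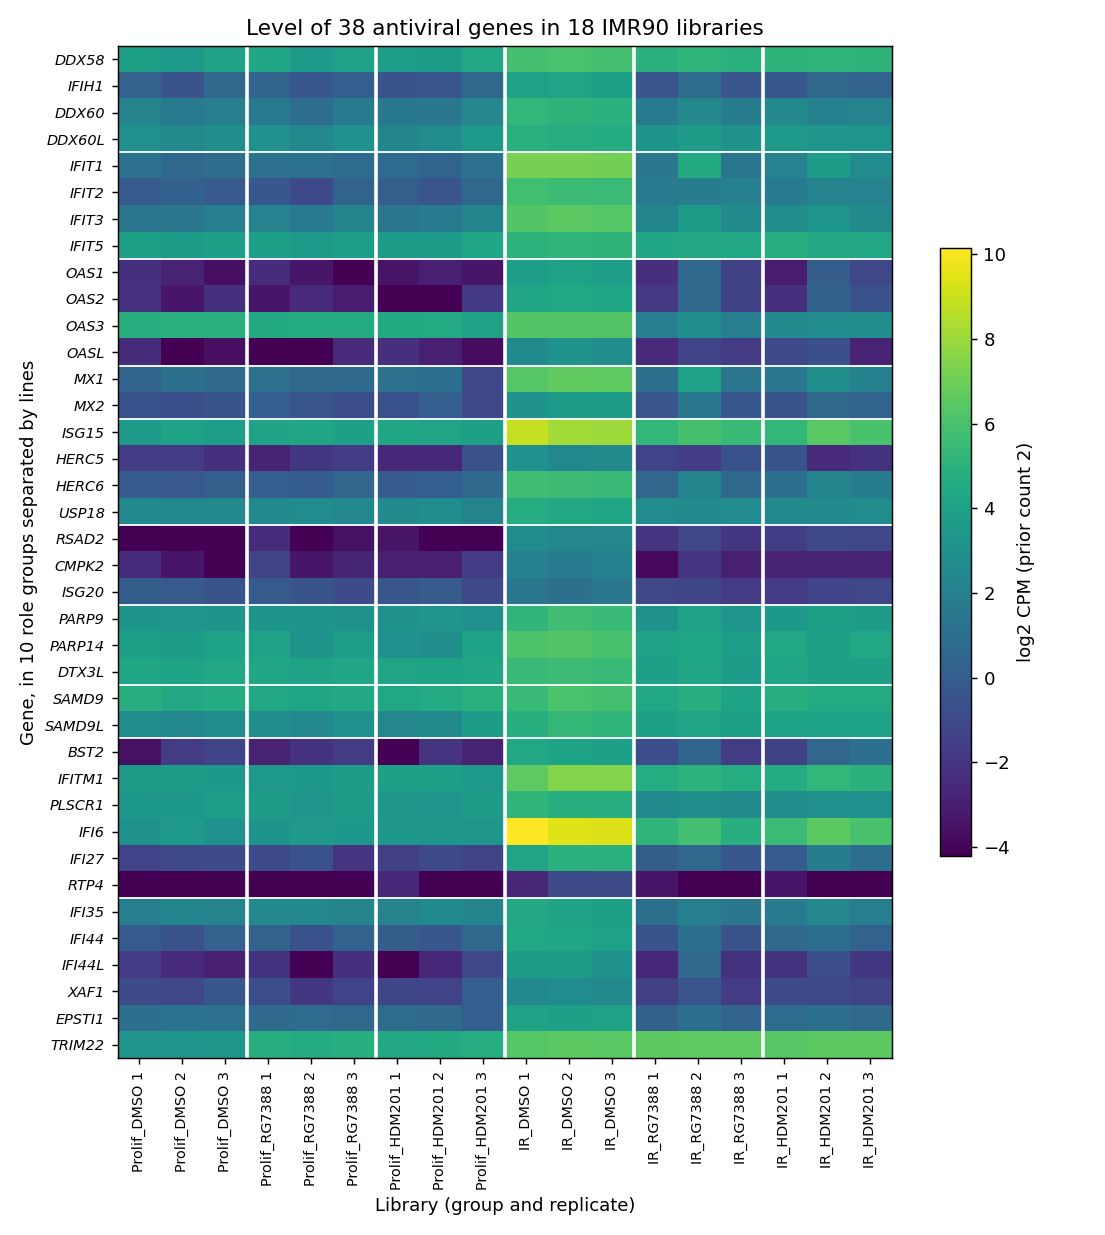
Level of each of the 38 genes (vertical axis, in role groups separated by lines) in each of the 18 libraries (horizontal axis), as log2 CPM with a prior count of 2. The 3 IR_DMSO columns are the brightest for 37 genes by group mean, and TRIM22 in the bottom line keeps its level in the 6 irradiated, compound-treated libraries.

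**Figure D2:**
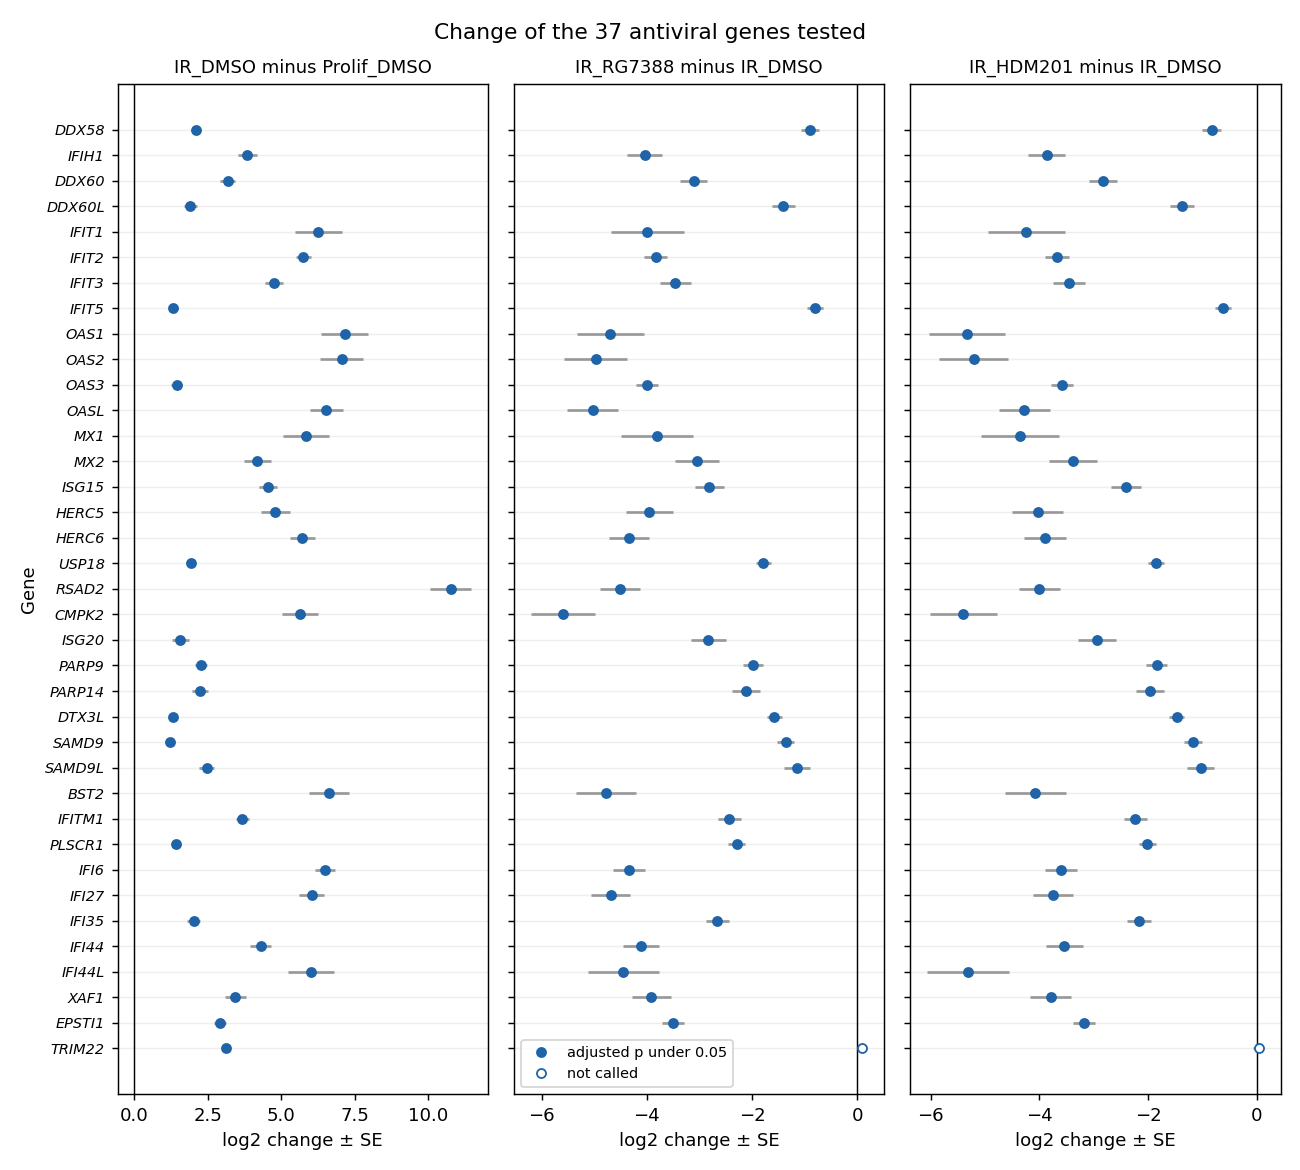
Log2 change with its standard error (horizontal axis) of the 37 genes tested (vertical axis) with irradiation in DMSO, with RG7388 in irradiated cells and with HDM201 in irradiated cells. Filled points passed an adjusted p of 0.05; all 37 lie right of 0 in the first panel, and 36 lie left of 0 in the second and in the third, with TRIM22 open at 0.10 and 0.04.

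The 4 RNA sensors and helicases rose with irradiation and fell with each compound. DDX58 (RIG-I, renamed RIGI), the sensor of RNA with a triphosphate end, was read at 15.3, 11.8 and 16.4 CPM in Prolif_DMSO, 60.6, 66.1 and 60.6 CPM in IR_DMSO, 31.5, 38.1 and 30.9 CPM in IR_RG7388 and 34.6, 36.8 and 34.2 CPM in IR_HDM201. IR_DMSO was clear of the 3 other groups, and the compound-treated libraries stayed above the proliferating ones. Its log2 change was 2.10 ± 0.18, adjusted p = 2.93e-09 (SE after the sign ±, here and below) with irradiation, and it fell by 0.90 ± 0.17 (adjusted p = 5.63e-04) with RG7388 and by 0.83 ± 0.17 (adjusted p = 0.00143) with HDM201. IFIH1 (MDA5), which senses long double-stranded RNA, went from a mean of 1.09 ± 0.418 CPM (SD, n = 3) to 16.2 ± 1.47 CPM and back to 1.03 ± 0.556 CPM in IR_RG7388 and 1.18 ± 0.356 CPM in IR_HDM201. So the paired sensors differed in how far they came down, IFIH1 by 16.4-fold and DDX58 by 1.87-fold with RG7388, although the difference between the genes was not tested. DDX60, a related helicase, fell by 3.11 ± 0.26 (adjusted p = 3.64e-08) with RG7388, and its neighbour on chromosome 4, DDX60L, fell by 1.40 ± 0.22 (adjusted p = 1.02e-04). In GENCODE v44, 43.2% of the exon bases of DDX58 are shared with an unnamed gene on the same strand, so its count is less certain.

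The 4 IFIT genes sit side by side on chromosome 10, from 89283694 to 89421605 on hg38, and encode proteins that bind RNA ends and hold back translation of viral RNA. IFIT1 was at 2.15, 1.51 and 1.86 CPM in Prolif_DMSO, 149, 147 and 137 CPM in IR_DMSO, 2.71, 22.6 and 2.67 CPM in IR_RG7388 and 4.41, 12.7 and 6.49 CPM in IR_HDM201. Its IR_DMSO libraries stood far above the rest, and within IR_RG7388 replicate 2 stood above the others. The rise was 6.26 ± 0.80, adjusted p = 1.92e-05, or 76.4-fold, and it fell by 3.99 ± 0.69 (adjusted p = 9.68e-04) with RG7388 and by 4.24 ± 0.71 (adjusted p = 8.14e-04) with HDM201. IFIT2 was at 0.927, 1.12 and 0.847 CPM in Prolif_DMSO, 55.7, 50.3 and 46.6 CPM in IR_DMSO, 3.08, 3.65 and 4.07 CPM in IR_RG7388 and 3.12, 4.61 and 4.44 CPM in IR_HDM201. It thus fell in the treated groups without reaching the proliferating range. IFIT3, which stabilises IFIT1 binding, followed with log2 changes of 4.75 ± 0.32, −3.46 ± 0.29 and −3.45 ± 0.30 in the 3 comparisons. IFIT5 moved least of the 4. Its values were 15.4, 12.2 and 14.6 CPM in Prolif_DMSO, 33.8, 37.7 and 35.0 CPM in IR_DMSO, 19.6, 21.6 and 20.1 CPM in IR_RG7388 and 26.5, 21.4 and 20.8 CPM in IR_HDM201. The rise was 2.51-fold (adjusted p = 1.31e-07), and the falls were 1.74-fold with RG7388 (adjusted p = 3.58e-04) and 1.54-fold with HDM201 (adjusted p = 0.00388). IFIT5 and DDX58 were the called genes whose falls with the compounds were under 2-fold.

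The OAS enzymes make short adenylate chains in the presence of double-stranded RNA, and these activate RNase L. OAS1, OAS3 and OAS2 lie in a row on chromosome 12, between 112905856 and 113011723. OAS1 was close to absent in Prolif_DMSO, at 0.154, 0.0862 and 0.0273 CPM, against 13.5, 17.5 and 13.8 CPM in IR_DMSO, 0.153, 1.49 and 0.311 CPM in IR_RG7388 and 0.0608, 0.966 and 0.400 CPM in IR_HDM201. OAS2 gave 0.170, 0.0431 and 0.164 CPM in Prolif_DMSO, 18.6, 21.0 and 18.3 CPM in IR_DMSO, 0.230, 1.52 and 0.311 CPM in IR_RG7388 and 0.152, 1.14 and 0.622 CPM in IR_HDM201. In both genes IR_DMSO was clear of all other groups, and replicate 2 was the highest of each treated group. With irradiation OAS1 rose by 7.15 ± 0.80, adjusted p = 1.61e-06, and OAS2 by 7.05 ± 0.72, adjusted p = 6.28e-07. OAS1 fell by 4.69 ± 0.63 (adjusted p = 5.38e-05) with RG7388 and by 5.34 ± 0.70 (adjusted p = 4.51e-05) with HDM201, and OAS2 fell by 4.97 ± 0.60 (adjusted p = 1.59e-05) and by 5.21 ± 0.63 (adjusted p = 2.10e-05). OASL, which has no synthetase activity and boosts RIG-I signalling, was at 0.139, 0 and 0.0273 CPM in Prolif_DMSO, 6.18, 8.57 and 7.38 CPM in IR_DMSO, 0.123, 0.340 and 0.259 CPM in IR_RG7388 and 0.426, 0.571 and 0.0889 CPM in IR_HDM201. It fell by 5.03 ± 0.49 (adjusted p = 1.30e-07) with RG7388 and by 4.28 ± 0.47 (adjusted p = 9.39e-07) with HDM201.

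OAS3 had another pattern from its neighbours. It was already at 27.8, 29.3 and 30.3 CPM in Prolif_DMSO and rose only to 78.0, 80.0 and 78.4 CPM in IR_DMSO. In IR_RG7388 it dropped to 3.69, 7.70 and 3.73 CPM and in IR_HDM201 to 6.28, 6.59 and 6.97 CPM, below every proliferating library. Its rise was 1.44 ± 0.18, adjusted p = 1.39e-06, and it fell by 3.99 ± 0.21 (adjusted p = 1.55e-11) with RG7388 and by 3.58 ± 0.21 (adjusted p = 8.91e-11) with HDM201. So a 2.71-fold rise stood against falls of 15.9-fold and 12.0-fold. In proliferating cells it was at 22.4, 24.3 and 24.2 CPM with RG7388 and 23.1, 23.6 and 16.8 CPM with HDM201. These libraries did not overlap with Prolif_DMSO. EPSTI1 was placed lower in this way as well with each compound. The share of all genes placed so is not given here, so neither placement was read as a result. The changes of OAS3, −0.30 ± 0.18, adjusted p = 0.532, and −0.46 ± 0.18, adjusted p = 0.355, did not pass the test.

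MX1 and MX2, dynamin-like GTPases that trap viral nucleoproteins and capsids, are neighbours on chromosome 21. MX1 was at 1.34, 2.07 and 1.59 CPM in Prolif_DMSO, 82.5, 99.1 and 96.1 CPM in IR_DMSO, 2.07, 15.8 and 2.64 CPM in IR_RG7388 and 2.61, 7.25 and 4.31 CPM in IR_HDM201. As for IFIT1, the second IR_RG7388 library was far above the others. MX1 rose by 5.85 ± 0.79, adjusted p = 3.14e-05, and fell by 3.81 ± 0.68 (adjusted p = 0.0013) with RG7388 and by 4.35 ± 0.72 (adjusted p = 7.35e-04) with HDM201. MX2 had means of 0.606 ± 0.0479 CPM, 11.1 ± 2.17 CPM, 1.42 ± 1.21 CPM and 1.14 ± 0.412 CPM in the same 4 groups, and its changes were 4.18 ± 0.46, −3.04 ± 0.42 and −3.38 ± 0.44 on the log2 scale, all 3 called.

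ISG15 is a ubiquitin-like protein that is joined to other proteins, HERC5 is the ligase that joins it, HERC6 is a relative of HERC5, and USP18 removes it and dampens the interferon receptor. ISG15 was at 12.1, 17.5 and 14.2 CPM in Prolif_DMSO, 467, 285 and 265 CPM in IR_DMSO, 38.6, 62.4 and 43.8 CPM in IR_RG7388 and 39.9, 86.9 and 65.5 CPM in IR_HDM201. The IR_DMSO libraries were the highest, replicate 1 above the others, and the treated libraries stayed above Prolif_DMSO without overlap. The changes were 4.55 ± 0.30, adjusted p = 2.70e-09, with irradiation, −2.81 ± 0.28, adjusted p = 1.52e-06, with RG7388 and −2.41 ± 0.27, adjusted p = 8.86e-06, with HDM201. HERC6 rose from 0.928 ± 0.110 CPM to 49.3 ± 4.21 CPM, a 52.4-fold rise, and HERC5 from 0.228 ± 0.0558 CPM to 6.48 ± 1.39 CPM. USP18, the eraser, changed less, from 5.77 ± 0.261 CPM to 21.9 ± 3.58 CPM, and was back at 6.36 ± 0.175 CPM and 6.05 ± 0.312 CPM with the compounds. All 3 enzymes were called higher with irradiation and lower with each compound.

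RSAD2 (viperin) makes a nucleotide that stops viral RNA chains, and CMPK2, a nucleotide kinase, lies next to it on chromosome 2. Not a single RSAD2 read was counted in the Prolif_DMSO libraries, and IR_DMSO gave 6.74, 5.32 and 5.25 CPM, IR_RG7388 0.184, 0.402 and 0.207 CPM and IR_HDM201 0.289, 0.439 and 0.400 CPM. Against the 3 counts that a count of 0 over the group allows, the rise was at least 239.5-fold. The fitted log2 change of 10.75 that tops the range above rests on the zero and is no bound, and with the bound of 7.90 in its place the median of the genes is the same. RSAD2 fell by 4.50 ± 0.38 (adjusted p = 1.56e-08) with RG7388 and by 4.00 ± 0.38 (adjusted p = 9.88e-08) with HDM201. CMPK2 was at 0.139, 0.0431 and 0 CPM in Prolif_DMSO, 4.23, 3.35 and 4.20 CPM in IR_DMSO, 0.0153, 0.186 and 0.0778 CPM in IR_RG7388 and 0.0912, 0.0879 and 0.0889 CPM in IR_HDM201. Treated and proliferating libraries overlapped. The fitted falls were 48.4-fold with RG7388 and 42.2-fold with HDM201, but they rest on few reads, since only IR_DMSO brought CMPK2 past the filter. ISG20, an exonuclease that degrades single-stranded RNA, rose from 0.830 ± 0.161 CPM to 2.48 ± 0.349 CPM and fell to 0.343 ± 0.0737 CPM and 0.337 ± 0.0719 CPM, below the proliferating level.

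PARP9 and DTX3L, partners in a complex that modifies histones and ubiquitin, share a promoter region on chromosome 3, with PARP14, a mono-ADP-ribosyltransferase, near them. PARP14 was at 15, 13.2 and 17.5 CPM in Prolif_DMSO, 71.1, 79.3 and 66 CPM in IR_DMSO, 16.7, 19.3 and 14.1 CPM in IR_RG7388 and 20.2, 15.2 and 19.9 CPM in IR_HDM201. Treated and proliferating libraries overlapped, and the changes were 2.24 ± 0.27, adjusted p = 2.05e-06, with irradiation, −2.12 ± 0.26, adjusted p = 1.60e-05, with RG7388 and −1.96 ± 0.26, adjusted p = 4.16e-05, with HDM201. DTX3L gave 18.6, 17.3 and 20.3 CPM in Prolif_DMSO, 43.8, 49.3 and 46.5 CPM in IR_DMSO, 14.5, 19.6 and 12.9 CPM in IR_RG7388 and 19.4, 15.5 and 15.4 CPM in IR_HDM201. Its rise of 2.48-fold was among the 3 smallest, and the falls were 2.98-fold and 2.77-fold. PARP9 had log2 changes of 2.27 ± 0.19, −1.99 ± 0.19 and −1.84 ± 0.19.

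SAMD9 and SAMD9L, neighbours on chromosome 7 that block translation in infected cells, also moved modestly. SAMD9 was at 27.4, 21.7 and 24.2 CPM in Prolif_DMSO, 44.5, 66.2 and 59.6 CPM in IR_DMSO, 21.0, 28.1 and 17.2 CPM in IR_RG7388 and 28.0, 23.8 and 23.9 CPM in IR_HDM201. The smallest rise of the 37 was here, at 1.21 ± 0.17, adjusted p = 2.96e-06, and it fell by 1.36 ± 0.17 (adjusted p = 2.91e-06) with RG7388 and by 1.16 ± 0.17 (adjusted p = 2.65e-05) with HDM201. SAMD9L rose more, by 2.45 ± 0.26, and fell by 1.14 ± 0.24 (adjusted p = 0.00231) and by 1.03 ± 0.25 (adjusted p = 0.00569), to 16.1 ± 1.38 CPM and 17.4 ± 0.0705 CPM against 6.41 ± 0.781 CPM in Prolif_DMSO.

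Proteins that act at membranes included the most abundant transcripts. By deposited FPKM, which are per length and can be set side by side, IFI6, a small membrane protein, averaged 1311 FPKM in IR_DMSO, ISG15 averaged 771 FPKM, and IFITM1, which blocks fusion of viruses with the cell, 414 FPKM, while IFI27, a relative of IFI6, averaged 83.0 FPKM and TRIM22 54.3 FPKM. IFI6 was at 8.49, 11.4 and 8.23 CPM in Prolif_DMSO, 1127, 690.3 and 655 CPM in IR_DMSO, 36.1, 58.1 and 28.1 CPM in IR_RG7388 and 47.3, 92.7 and 64.9 CPM in IR_HDM201. IR_DMSO replicate 1 was the highest library, no irradiated group overlapped with Prolif_DMSO, and the changes were 6.47 ± 0.34, adjusted p = 2.10e-10, with irradiation, −4.34 ± 0.31, adjusted p = 4.02e-08, with RG7388 and −3.60 ± 0.30, adjusted p = 3.06e-07, with HDM201. The tethering protein BST2 rose 98.2-fold from 0.215 ± 0.167 CPM, IFI27 rose 65.7-fold from 0.412 ± 0.0646 CPM, IFITM1 rose 12.8-fold from 11.8 ± 0.760 CPM, and PLSCR1, a phospholipid scramblase, rose 2.70-fold from 11.8 ± 1.78 CPM. All of these were called lower with each compound, by 27.3-fold, 25.8-fold, 5.38-fold and 4.90-fold with RG7388. RTP4, a receptor transporter that binds viral RNA, did not pass the filter. It was at 0, 0 and 0 CPM in Prolif_DMSO and 0.106, 0.472 and 0.485 CPM in IR_DMSO, then 0.0459, 0 and 0 CPM in IR_RG7388 and 0.0456, 0 and 0 CPM in IR_HDM201. Its rise was at least 14.7-fold against 3 counts over the Prolif_DMSO group, with an adjusted p of 0.00173 when no filter was applied, and its falls then did not pass (adjusted p = 0.0667 with RG7388 and 0.0986 with HDM201).

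Among the remaining proteins, IFI44 and IFI44L, neighbours on chromosome 1, rose 19.6-fold and 63.9-fold. IFI44L was at 0.247, 0.129 and 0.0820 CPM in Prolif_DMSO, 12.3, 12.2 and 8.92 CPM in IR_DMSO, 0.107, 1.45 and 0.181 CPM in IR_RG7388 and 0.182, 0.527 and 0.222 CPM in IR_HDM201. Treated and proliferating libraries overlapped, and it fell by 4.45 ± 0.67 (adjusted p = 1.67e-04) with RG7388 and by 5.32 ± 0.75 (adjusted p = 9.99e-05) with HDM201. XAF1, which binds the apoptosis inhibitor XIAP, IFI35, which interacts with other interferon-induced proteins, and EPSTI1 rose by 3.43 ± 0.36, 2.02 ± 0.21 and 2.92 ± 0.20 on the log2 scale, and had falls of larger size, with changes of −3.92 ± 0.37, −2.66 ± 0.22 and −3.50 ± 0.21 with RG7388 and of −3.79 ± 0.38, −2.16 ± 0.21 and −3.17 ± 0.21 with HDM201. Exon bases of XAF1, IFITM1 and IFI6 are shared with other annotated genes to 38.3%, 31.6% and 23.1%, and the strand setting of the counting is not given in the sources used here.

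TRIM22 was the exception. It encodes a tripartite-motif ubiquitin ligase that restricts several viruses, and it is known both as an interferon-induced gene and as a target of p53. It was at 9.51, 10.2 and 10.5 CPM in Prolif_DMSO, 27.8, 24.6 and 28.6 CPM in Prolif_RG7388, 21.9, 22.7 and 25.5 CPM in Prolif_HDM201, 81.5, 91.0 and 88.3 CPM in IR_DMSO, 90.3, 94.3 and 95.0 CPM in IR_RG7388 and 85.5, 90.5 and 91.7 CPM in IR_HDM201. The 3 irradiated groups overlapped, the 3 proliferating groups were all below them, and both compounds lifted proliferating cells clear of Prolif_DMSO. Irradiation raised it by 3.11 ± 0.10, adjusted p = 1.74e-16. In irradiated cells its change was 0.10 ± 0.09, adjusted p = 0.491, with RG7388 and 0.04 ± 0.09, adjusted p = 0.829, with HDM201. On the deposited FPKM, by limma with a pseudocount of 1, the same changes were −0.30 (adjusted p = 0.110) and −0.40 (adjusted p = 0.0390), so the direction of these small changes depends on the unit. In proliferating cells it rose by 1.43 ± 0.10, adjusted p = 7.34e-09, with RG7388 and 1.22 ± 0.10, adjusted p = 1.49e-07, with HDM201. It was the only gene of the 37 called in proliferating cells, where 1.2% of all genes were called higher with RG7388 and 0.545% with HDM201. These shares depend on the libraries used. Without Prolif_HDM201 replicate 3, 1672 genes were called with HDM201 in either direction, in place of 127. With RG7388 the 279 genes called became 94 without Prolif_DMSO replicate 1 and 1081 when only the compared groups were fitted. TRIM22 was called higher in each of these fits.

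**Figure D3:**
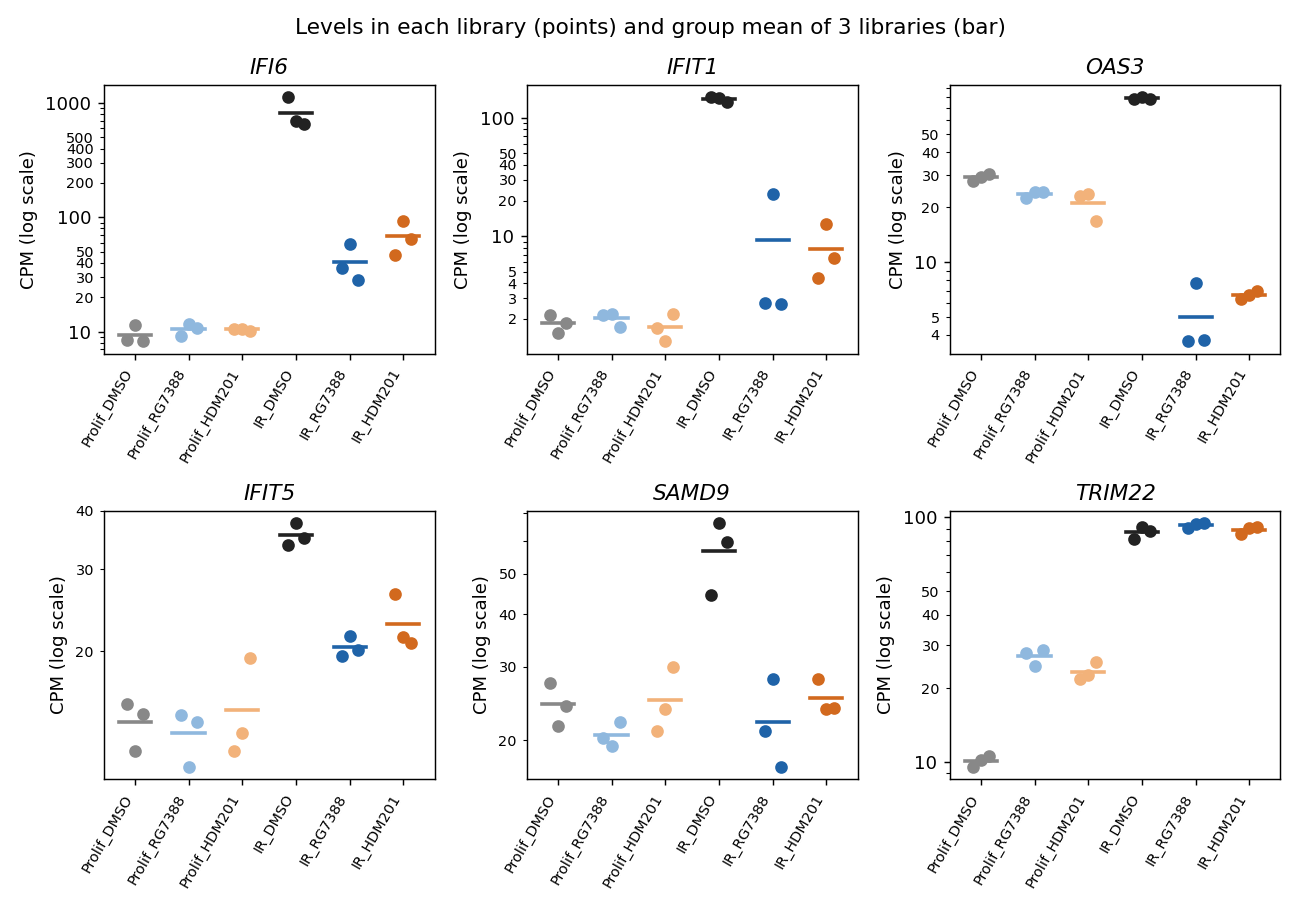
CPM in each library (points; vertical log axis, with its own range in each panel) and the mean of 3 libraries (bars) for 6 genes in the 6 groups. IFI6 and IFIT1 fell toward the proliferating level without reaching it, OAS3 fell below it to 3.69 to 7.70 CPM, SAMD9 overlapped with it, IFIT5 came part of the way, and TRIM22 stayed between 81.5 and 95.0 CPM in all 9 irradiated libraries.

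Without irradiation few of these genes were called with the compounds, but many were so low that a fall could hardly be called. Of the antiviral genes examined, 16, RTP4 among them, had a mean under 1 CPM in Prolif_DMSO. When only the groups of each comparison were fitted, 29 of the genes passed the filter. For the low genes the lack of a lower call does not show that the compounds had no effect. No gene of the 37 was called lower with RG7388, where 0.342% of all genes were, or with HDM201, where 0.154% were, and the median log2 changes were −0.01 and 0.07. OAS3 was called lower with RG7388 when only the libraries of that comparison were fitted (−0.33, adjusted p = 0.0370), and PARP14 with HDM201 when Prolif_HDM201 replicate 3 was left out (−0.96, adjusted p = 0.00782). The difference in the effect of a compound between irradiated and proliferating cells was tested as an interaction. For genes at low levels in proliferating cells, this test cannot separate a weaker effect from a lack of room to fall. For RG7388, 32 of 37 genes had a lower change in irradiated cells (5.27% of all genes), with a median difference of −3.33, and for HDM201 33 did (5.67%), with a median of −3.13. Leaving out each library in turn gave 27 to 32 genes for RG7388 and 28 to 32 for HDM201. None had a higher change in irradiated cells, where 2.2% and 2.97% of all genes did. OAS1, OAS2 and BST2, which had at most 13 counts in any proliferating library, did not pass for either compound, nor did OASL and IFI44L for RG7388 or RSAD2 for HDM201. IFIH1 passed with −3.91 ± 0.51, adjusted p = 2.94e-05, for RG7388 and −3.68 ± 0.50, adjusted p = 5.01e-05, for HDM201. IFIT1 was near the threshold, at adjusted p = 0.0391 and 0.0303, as was MX1 at 0.0497 and 0.0355. TRIM22 was called as well, by −1.33 ± 0.14, adjusted p = 4.88e-07, and −1.18 ± 0.14, adjusted p = 2.51e-06, with a rise in proliferating cells and no called change in irradiated ones.

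How near the treated cells came to unirradiated ones was asked by comparing them with Prolif_DMSO. In IR_RG7388, 14 of 37 genes were still higher (24.6% of all genes were) and 5 were lower (24.6%), and 18 did not pass. In IR_HDM201, 15 were higher (25.2%), 3 were lower (25%) and 19 did not pass. These shares of the 37 genes are above those of all genes in the higher direction and below them in the lower. For RG7388 the higher share depends on 1 library. Without IR_RG7388 replicate 2, 10 of 38 genes were higher and 6 lower. The higher share was then near 24.6%, that of all genes with every library kept. The median was 1.14 and 0.76 on the log2 scale. Counted by libraries that did not overlap, 18 of 38 genes were higher and 3 lower in each, against 32.9% and 31.9% of all genes with RG7388 and 29.9% and 29.8% with HDM201. TRIM22 was 9.27-fold and 8.87-fold above, and IFI6 4.38-fold (adjusted p = 1.57e-05) and 7.34-fold (adjusted p = 7.09e-07). RSAD2 was at least 11.0-fold and 15.6-fold above, against the 3-count limit. IFIT2 was 3.77-fold and 4.17-fold above, ISG15 3.33-fold and 4.41-fold, and SAMD9L 2.48-fold and 2.69-fold. In total 13 genes were called above Prolif_DMSO in both treated groups, and OAS3, ISG20 and PLSCR1 below it in both. Both comparisons use the same Prolif_DMSO libraries, so these calls are not independent. The share of all genes called in both is not given here. OAS3 was lower by 5.87-fold (adjusted p = 1.12e-09) and 4.41-fold (adjusted p = 1.44e-08), ISG20 by 2.40-fold and 2.59-fold, and PLSCR1 by 1.82-fold and 1.50-fold. IFI35 (adjusted p = 0.0185) and EPSTI1 (adjusted p = 0.028) were lower with RG7388 alone, and the compounds were not compared. For IFIH1, USP18 and SAMD9 the differences from Prolif_DMSO with RG7388 were −0.20 ± 0.36, 0.14 ± 0.15 and −0.15 ± 0.17, none of them called.

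**Figure D4:**
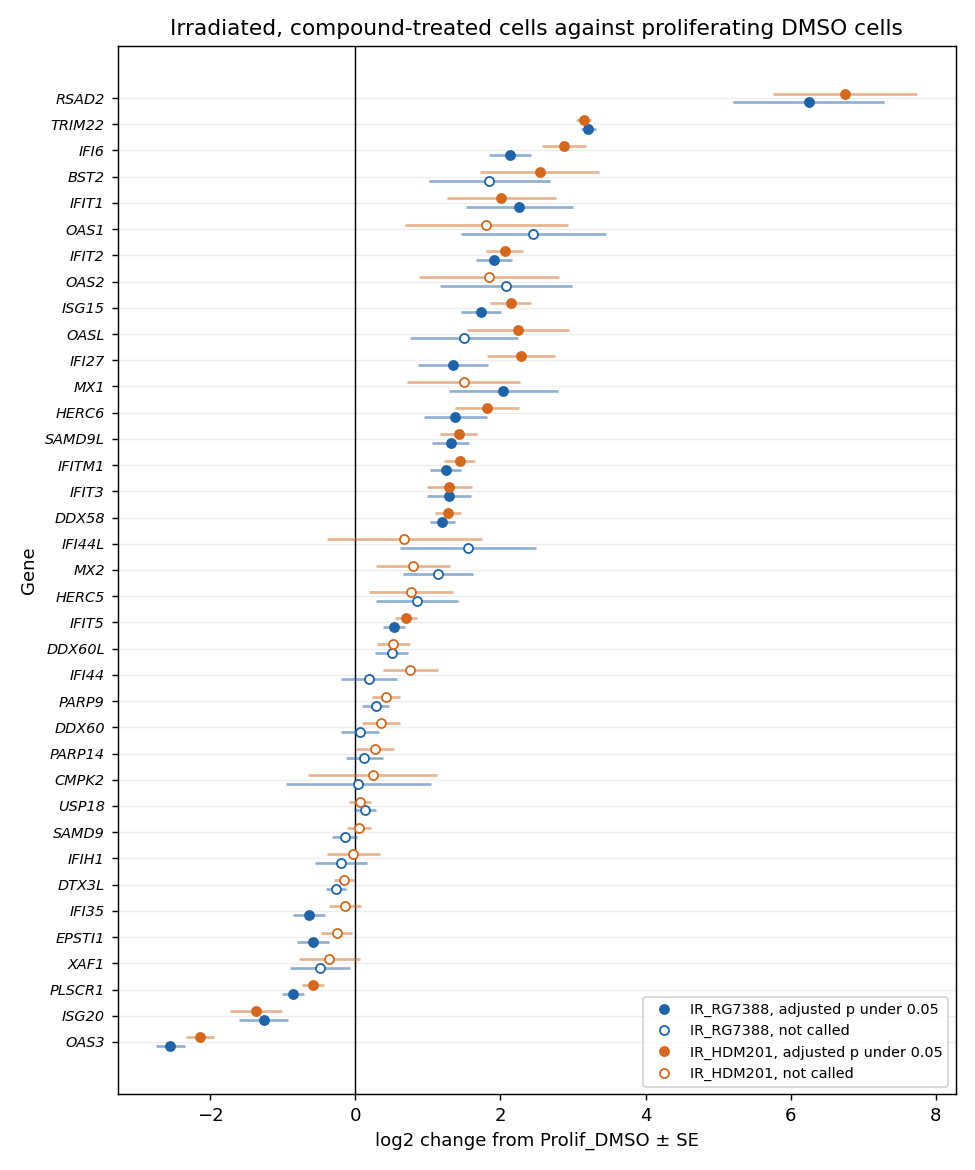
Log2 change from Prolif_DMSO with its standard error (horizontal axis) of the 37 genes tested (vertical axis, ordered by the mean of both changes) in IR_RG7388 and IR_HDM201. Filled points passed an adjusted p of 0.05; the genes run from OAS3 at −2.55 and −2.14 to RSAD2, whose fitted change rests on a Prolif_DMSO group at 0.

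The treated libraries did not come down evenly. The median log2 CPM of the 38 genes was 1.28, 2.41 and 1.47 in the 3 IR_RG7388 libraries and 1.69, 2.34 and 2.15 in the IR_HDM201 libraries, against 4.83, 4.91 and 4.88 in IR_DMSO and 1.09, 1.17 and 1.03 in Prolif_DMSO. IR_RG7388 replicate 2 held the highest value of its group for 32 of the 38 genes. It stood far above the others for IFI44L, IFIT1 and MX1, while USP18 (6.43, 6.16 and 6.48 CPM) and IFIT2 did not show it. Without that library the median change with RG7388 was −3.84, 36 of 38 genes were still called lower, and 10 in place of 14 stood above Prolif_DMSO with a median of 0.47. The calls of IFIT1 and MX1 above Prolif_DMSO then did not pass (adjusted p = 0.263 and 0.445). For HDM201 the median above Prolif_DMSO was 1.19 without Prolif_DMSO replicate 1.

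The genes that carry interferon signals were read from lists of the pathway. Of 22 interferon genes listed, 2 passed the filter. IFNB1, the first interferon made by fibroblasts, had 10 reads over the IR_DMSO group and 0 in every other group. IFNE, a type I interferon known from epithelia, did not pass with irradiation (−0.63 ± 0.36, adjusted p = 0.157) and rose with RG7388 by 1.04 ± 0.36, adjusted p = 0.0375, and with HDM201 by 1.17 ± 0.36, adjusted p = 0.0221, against the direction of the effectors. These changes lie between low levels. All 22 interferon genes together summed to 0.862 to 1.34 CPM in IR_DMSO, 1.67 to 2.17 CPM in IR_RG7388 and 1.80 to 2.28 CPM in IR_HDM201. Of the 8 receptor and kinase genes tested, 3 rose and 2 fell with irradiation, where 26.3% of all genes rose and 25.3% fell, and TYK2, a receptor-bound kinase, was the only one called with RG7388 (0.33 ± 0.10, adjusted p = 0.0195), with none called with HDM201. Of 9 STAT and IRF genes tested, 5 rose and none fell with irradiation, and 6 fell and none rose with each compound, with median changes of 1.02, −0.96 and −0.91. Of all genes, 10.9% rose and 11.9% fell with RG7388, and 9.96% rose and 11.3% fell with HDM201. IRF7, the factor that amplifies interferon production, had changes of 1.94 ± 0.19, −2.23 ± 0.19 and −1.94 ± 0.19, IRF9 of 1.55 ± 0.28, −1.30 ± 0.27 and −1.41 ± 0.28, STAT2 of 1.20 ± 0.10, −0.64 ± 0.10 and −0.91 ± 0.10, and IRF1 of 0.51 ± 0.13, −1.26 ± 0.13 and −1.36 ± 0.13.

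Of 12 genes for nucleic acid sensing and adaptors tested, 6 rose and 4 fell with irradiation, 3 rose and 9 fell with RG7388, and none rose and 5 fell with HDM201. Over all genes 26.3% rose and 25.3% fell with irradiation. With RG7388 10.9% of all genes rose and 11.9% fell, and with HDM201 9.96% rose and 11.3% fell. DHX58 (LGP2), the partner of DDX58 and IFIH1, changed by 3.11 ± 0.28, −3.10 ± 0.28 and −2.59 ± 0.27, and TLR3, the endosomal sensor of double-stranded RNA, by 3.24 ± 0.51, −2.41 ± 0.47 and −2.34 ± 0.48. IKBKE, a kinase that activates IRF factors, and TRIM25, the ligase that activates RIG-I, fell with RG7388 by 0.80 ± 0.14 and 0.66 ± 0.10. The 3 that rose with RG7388 were adaptors, MAVS (0.49 ± 0.12, adjusted p = 0.00331), which relays RIG-I signals, TICAM1 (0.36 ± 0.13, adjusted p = 0.0441), which relays TLR3 signals, and TMEM173 (0.46 ± 0.14, adjusted p = 0.0192), which relays signals of cytosolic DNA and is known as STING. The DNA sensor CGAS fell with irradiation (−1.06 ± 0.16, adjusted p = 7.30e-06) and with RG7388 (−0.60 ± 0.17, adjusted p = 0.0109), and its change with HDM201 did not pass (−0.39 ± 0.17, adjusted p = 0.101). Of 7 feedback inhibitors tested, 1 rose and 2 fell with irradiation. SOCS1, an inhibitor of JAK kinases, fell by 2.13 ± 0.29 (adjusted p = 2.08e-05) with RG7388 and by 1.57 ± 0.29 (adjusted p = 5.53e-04) with HDM201, and SOCS3 fell by 1.26 ± 0.12 (adjusted p = 3.57e-08) and by 1.24 ± 0.12 (adjusted p = 6.79e-08). Of 41 other interferon-stimulated genes tested, 33 rose and 1 fell with irradiation, 29 fell with RG7388 and 32 with HDM201, none rose with either, and the medians were 1.13, −0.79 and −0.84, nearer 0 than those of the antiviral effectors. In proliferating cells no gene of these lists was called with either compound, by edgeR at an adjusted p under 0.05. Of all genes, 1.2% were called higher and 0.342% lower there with RG7388, and 0.545% and 0.154% with HDM201. With so few calls over all genes, their absence from these lists says little.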

How the data were processed

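Poly(A) RNA of 18 IMR90 libraries was sequenced. The authors aligned reads to hg38 with STAR and counted them per gene with HTSeq, and the deposited counts are whole reads per gene, not normalized. The deposited FPKM were made by the authors with Cufflinks. Versions and strand setting: not given in the sources used here. From the counts, 45 pseudoautosomal copies were left out and genes with low counts were removed by filterByExpr (edgeR 4.0.16 in R 4.3.3), which needs about 0.301 CPM in 3 libraries. Of the rest, 18151 genes were tested with edgeR's quasi-likelihood test after TMM scaling, with a mean per group over all 18 libraries and 12 residual degrees of freedom, and p-values were adjusted by Benjamini-Hochberg over all genes tested. A call is an adjusted p under 0.05. CPM use TMM-scaled library totals, and log2 levels add a prior count of 2. Depth was 21609198 to 66647700 counts, and a count of 0 over a group allows up to 3 counts, for counting error only.

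Values in every library were given for the gene with the highest IR_DMSO CPM in each role group, for genes that were filtered out or not called or called in proliferating cells, and for those with the largest and smallest changes. The genes and lists were chosen with earlier results of these data known. Alternatives were DESeq2 1.42.0 (Wald test and size factors), limma 3.58.1 on log2 FPKM with pseudocounts of 1 and 0.1, library totals, other filters and thresholds, a replicate block, fits of the compared groups alone and leaving out each library. Promoters were matched to RefSeq by symbol, and exon overlaps were taken from GENCODE v44.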

Additional observations from a re-analysis of the deposited data

Results flagged for a closer look

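The effect of a compound differed between irradiated and proliferating cells, by a test of the difference itself, for 32 of the 37 antiviral genes with RG7388 and for 33 with HDM201, all with the lower change in irradiated cells. TRIM22 was among them, at −1.33 for RG7388 and −1.18 for HDM201 on the log2 scale. Leaving out each library in turn gave 27 to 32 genes for RG7388 and 28 to 32 for HDM201, and 7 and 10 genes lost the call in some alternative, IFIT1 and MX1 among them. Both tests use the same DMSO libraries, and genes at low levels in proliferating cells had little room to fall there. With 3 libraries in each group, single libraries were not tested as outliers.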

How the results depend on the processing

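The medians in proliferating cells were near 0 and changed sign, with −0.05 to 0.09 for RG7388 and −0.11 to 0.10 for HDM201 when libraries were left out, and all other medians kept their sign. Every gene called higher with irradiation by edgeR stayed so in each alternative that gave it an adjusted p, and DDX58 and IFIT5 were the only calls lost with either compound in irradiated cells, at a 2-fold minimum. DESeq2's Wald test called 37 higher with irradiation and 35 lower with each compound, and gave IFIT1 no adjusted p. Library totals moved the median over all genes from 0.05 to 0.34 with irradiation and from −0.03 to −0.22 with RG7388.

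On log2(FPKM + 1) by limma, with and without the filter, the median change was 2.23 with irradiation, −2.23 with RG7388 and −2.03 with HDM201 in irradiated cells, −2.17 and −2.11 for the differences between states, and 0.31 and 0.43 for IR_RG7388 and IR_HDM201 against Prolif_DMSO. A pseudocount of 0.1 gave −3.07 with HDM201 in irradiated cells and 0.58 for IR_RG7388 against Prolif_DMSO. Genes called lower in IR_RG7388 than in Prolif_DMSO numbered 3 with library totals and at an adjusted p under 0.01, and 2 at a 2-fold minimum and in each limma fit. Without the filter limma called 9 higher there, and 1 lower in IR_HDM201. With the compared groups alone that median was 0.50 for IR_RG7388, and 1 gene (OAS3) was called lower with RG7388 in proliferating cells. Without both libraries that stood apart, 1 gene (PARP14) was called lower with HDM201 in proliferating cells.

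Leaving out each library in turn gave medians of −3.84 to −3.33 with RG7388 in irradiated cells, −3.69 to −3.06 and −3.50 to −3.02 for the differences between states, 0.47 to 1.26 for IR_RG7388 and 0.64 to 1.19 for IR_HDM201 against Prolif_DMSO. Genes called lower numbered 0 to 1 with HDM201 in proliferating cells and 3 to 6 in IR_RG7388 against Prolif_DMSO.

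With the replicate number as a block, 37 genes were higher with irradiation and 36 lower with each compound, and the medians were 3.82, −3.52 and −3.44. Of 45 pairs of libraries with the same number, 17 had deviations that correlated above 0.1, and 8 of 18 libraries correlated best with their own number. The rate for pairs of different number is not given here, so these figures do not settle whether the numbers pair the samples. The main fits did not take them as pairs.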
